A study of Mus musculus with 10 samples.

Results

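The 10 pigmentation genes described here are *Pmel*, *Mlana*, *Tyr*, *Tyrp1*, *Dct*, *Oca2*, *Slc45a2*, *Slc24a5*, *Gpr143* and *Trpm1*, taken by symbol from the 55401 genes counted in each of 10 B16F10 tumors. B16F10 is a mouse melanoma cell line, grown here under the skin of female C57BL/6J mice aged 9 to 12 weeks. In 5 tumors the injected cells were *Mir25* knockouts (KO), made with CRISPR-Cas9, and in the other 5 they carried a non-targeting control guide (NTC). All mice, KO and NTC alike, received Comb: GVAX, which is irradiated B16 cells that secrete GM-CSF (on days 1 and 4), with the antibody αPD-1 injected at 10 mg/kg on each of days 6, 9 and 12. Tumors were taken on day 15, and whole tumor RNA was sequenced, so host cells are in every sample. The sources used here do not say which guide, which way of delivery or which KO cell population gave these tumors, so p-values measure the spread between tumors and not between KO lines. The question asked of the 10 genes was whether the melanocyte program of the tumor cells differs between KO and NTC.

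Melanin is made in the melanosome, an organelle related to the lysosome. Tyrosinase (*Tyr*) carries out the rate-limiting oxidation of tyrosine, and dopachrome tautomerase (*Dct*) and *Tyrp1* act on later intermediates to give eumelanin. *Pmel* forms the amyloid fibrils on which melanin is laid down, and *Mlana* (MART-1) is a melanosome membrane protein that associates with PMEL. *Oca2*, *Slc45a2* and *Slc24a5* encode membrane transporters or channels that set the ionic milieu and pH of the organelle. *Gpr143* is a receptor of the melanosome membrane that governs melanosome size, and *Trpm1* is a cation channel whose intron holds the gene of miR-211. Most of these genes are known targets of the transcription factor MITF, which acts with SOX10 in melanocytes and binds E-boxes with the core CATGTG. Several of the proteins are also antigens that T cells recognise on melanoma cells.

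The libraries held 23243707 to 27006075 reads on genes in KO tumors and 11896643 to 28682130 in NTC tumors. The lowest total belongs to NTC replicate 1, which stood apart in other ways as well. Reads that fell on no gene made up 42.95% of its count file and 17.47% to 28.18% of the other 9 files. It also had reads on more genes, 33193 compared with 22192 to 25435. For that reason results are given over all 10 tumors and, for the 10 genes and the lists, also over 9, without NTC replicate 1. *Mir25* itself had 0 counts in all 10 libraries, KO and NTC, so these files do not show the deletion. All 10 pigmentation genes passed the filter on low counts, with 144 to 226899 reads per gene and library.

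Every one of the 10 genes was read in every tumor. On the scale of TMM-normalized CPM (read counts scaled to a common library size) divided by the length of the gene's merged exons, the mean level over 10 tumors was highest for *Tyrp1* at 2086 ± 398 CPM per kb (SD, n = 10). *Pmel* followed at 1733 ± 430 and *Dct* at 827 ± 186 CPM per kb. *Mlana* had 462 ± 77.4, *Slc45a2* 238 ± 64.5 and *Slc24a5* 138 ± 29.7 CPM per kb. The lowest levels were those of *Tyr* (80.1 ± 17.5), *Trpm1* (34.5 ± 9.14), *Oca2* (28.7 ± 8.001) and *Gpr143* (16.5 ± 4.57 CPM per kb). The step from *Tyrp1* to *Pmel* held in 9 of 10 tumors, and each later step held in 10 of 10 when both genes were read in the same tumor. Between tumors, neighbours in the order overlapped in range except at the steps from *Pmel* to *Dct* and from *Dct* to *Mlana*. The merged exons of *Trpm1* (14746 bp) combine many isoforms, and this length lowers its level per kb. *Tyrp1*, *Dct* and *Pmel* together took 83.2% to 85.5% of the reads on the 10 genes.

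RefSeq promoter sequences (250 bases before to 50 after the annotated start, GRCm38.p6) were matched by symbol for 6 of the 10 genes: *Slc24a5*, *Tyrp1*, *Oca2*, *Trpm1*, *Tyr* and *Dct*. They were searched on both strands for TCATGTG, the extended E-box, and for its core CATGTG, which lies inside it. These genes have 7 promoter entries, of which *Trpm1* has 2. The longer motif was found in 5 of the 7, one each for *Slc24a5*, *Tyrp1*, *Tyr*, *Dct* and *Trpm1*, against 3.77% of 32851 mouse promoters, and not in that of *Oca2* or the second of *Trpm1*. The core was found for 6 of 6 genes, against 14.2% of promoters. The stretches around the longer motif are shown because it was found for 5 of the 6 genes searched. Most of the 10 genes are known MITF targets, so these matches are no independent support for that. Each is on the strand of the gene, 5′ to 3′, with the match in capitals; CACATGA is the same motif on the opposite strand.
Tyr, chr7:87493500-87493562, minus strand: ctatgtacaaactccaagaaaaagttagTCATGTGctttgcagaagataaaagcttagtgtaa
Tyrp1, chr4:80834138-80834200, plus strand: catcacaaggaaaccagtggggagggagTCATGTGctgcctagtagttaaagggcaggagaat
Dct, chr14:118052363-118052425, minus strand: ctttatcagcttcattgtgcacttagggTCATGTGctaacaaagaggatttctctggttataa
Dct, chr14:118052444-118052496, minus strand: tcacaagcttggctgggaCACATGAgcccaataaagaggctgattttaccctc
Slc24a5, chr2:125068086-125068148, plus strand: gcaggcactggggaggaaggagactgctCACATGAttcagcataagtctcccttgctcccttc
Trpm1, chr7:64153665-64153727, plus strand: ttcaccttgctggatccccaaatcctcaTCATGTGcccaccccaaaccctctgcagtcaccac
The distance from the match to the RefSeq start was 13 bases for *Slc24a5*, 22 for *Tyr*, 47 for *Tyrp1* and 142 for *Trpm1*. *Dct* held 2 matches, at 151 and 232 bases. In GENCODE M21 *Tyrp1* starts earlier, at chr4:80834123, so by that annotation its match lies inside the gene and not before it. A match is a run of letters and was not measured as a binding site here. *Mitf* itself was read at 771 ± 201 CPM in KO and 776 ± 184 CPM in NTC tumors (SD, n = 5 each).

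Of the 3 pigmentation enzymes, none passed the threshold between KO and NTC by edgeR's quasi-likelihood test. *Tyr* had 535, 515, 749, 615 and 385 CPM in KO replicates 1 to 5 and 350.4, 628, 642, 660.0 and 615 CPM in NTC replicates 1 to 5. The lowest values were those of NTC replicate 1 and KO replicate 5, and the groups overlapped. Its log2 fold change, KO against NTC, was -0.05 (SE 0.21, adjusted p = 0.956), the nearest to 0 of the 10 genes, and -0.21 over 9 tumors (SE 0.17, adjusted p = 0.504).

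*Tyrp1* had 5190.1, 5418, 6494, 6160.3 and 4178 CPM in the KO tumors and 4208, 7449, 6650.4, 7067 and 6166 CPM in the NTC tumors. *Dct* had 4145, 3982, 5750.3, 5086 and 3352.5 CPM in KO and 3251, 6215, 5709, 5877 and 5394 CPM in NTC. In both genes the same pair of tumors, KO replicate 5 and NTC replicate 1, lay below all others. The log2 fold change was -0.20 (SE 0.19, adjusted p = 0.773) for *Tyrp1* and -0.25 (SE 0.21, adjusted p = 0.758) for *Dct*. Over 9 tumors they were -0.35 (adjusted p = 0.262) and -0.41 (adjusted p = 0.238).

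Of the structural proteins of the melanosome, *Pmel* and *Mlana* had fold changes of opposite sign over 10 tumors, neither past the threshold. *Pmel* had 3091, 3662, 4465, 3579 and 2799.5 CPM in KO and 2595, 5525, 4578, 4289.5 and 5125 CPM in NTC. Its mean was 3519 ± 636 CPM in KO (SD, n = 5), 4423 ± 1128 CPM in NTC (SD, n = 5) and 4879 ± 553 CPM in NTC replicates 2 to 5 (SD, n = 4). The log2 fold change was -0.33 (SE 0.21, adjusted p = 0.683), and -0.50 over 9 tumors (SE 0.17, adjusted p = 0.182). KO replicate 3, at 4465 CPM, lay within the range of those 4 NTC tumors.

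*Mlana* had 462, 507, 579, 554 and 428 CPM in KO and 309, 502, 517, 445 and 578 CPM in NTC. The means were 506 ± 62.7 CPM in KO and 470.1 ± 102 CPM in NTC (SD, n = 5 each), and 510 ± 54.4 CPM in NTC replicates 2 to 5 (SD, n = 4). It was the only one of the 10 with a log2 fold change above 0 over 10 tumors (0.11, SE 0.16, adjusted p = 0.871). Over 9 tumors it was -0.04 (SE 0.12, adjusted p = 0.862), so its sign depends on NTC replicate 1.

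The 3 transporter genes were lower in the KO means, none past the threshold. *Slc24a5*, which encodes a potassium-dependent sodium-calcium exchanger, had 266, 282, 360.3, 309 and 209 CPM in KO and 247, 405, 371, 364 and 407 CPM in NTC. Without NTC replicate 1 the groups did not overlap, and with it they did. The log2 fold change was -0.33 (SE 0.17, adjusted p = 0.618), and -0.47 over 9 tumors (SE 0.15, adjusted p = 0.177). Of its 2330 exonic bp in GENCODE M21, 39.5% are shared with *Myef2* on the opposite strand, and since the strand setting of the counting is not given in the sources used here, reads of both genes may not be told apart there.

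*Oca2* had 96.8, 115, 137, 80.1 and 71.1 CPM in KO and 78.1, 124, 126, 137 and 170.3 CPM in NTC. Its log2 fold change was -0.34 (SE 0.22, adjusted p = 0.686), and -0.50 over 9 tumors (SE 0.19, adjusted p = 0.205). *Slc45a2* ran from 453 to 941 CPM in KO and from 403 to 933 CPM in NTC, with KO replicate 3 the highest of all 10 tumors. Its log2 fold change was -0.19 (SE 0.25, adjusted p = 0.846), and -0.38 over 9 tumors (SE 0.20, adjusted p = 0.322).

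The receptor gene *Gpr143* ran from 21.1 to 42.7 CPM in KO and from 19.4 to 43.8 CPM in NTC, with a log2 fold change of -0.22 (SE 0.25, adjusted p = 0.820), and -0.40 over 9 tumors (SE 0.21, adjusted p = 0.313). The channel gene *Trpm1* had the lowest log2 fold change of the 10. It had 397, 452, 540.3, 432 and 307 CPM in KO replicates 1 to 5 and 389, 619, 581, 619 and 746 CPM in NTC replicates 1 to 5. All 5 KO tumors lay below NTC replicates 2 to 5, and NTC replicate 1 lay within the KO range. The means were 426 ± 84.7 CPM in KO and 591 ± 129 CPM in NTC (SD, n = 5 each), and 641 ± 72.3 CPM in NTC replicates 2 to 5 (SD, n = 4). The log2 fold change was -0.47 (SE 0.19, unadjusted p = 0.0279, adjusted p = 0.494), and -0.62 over 9 tumors (SE 0.16, unadjusted p = 0.00294, adjusted p = 0.139). With 1 tumor left out at a time it ran from -0.62 to -0.38. Its unadjusted p was 0.0582 without KO replicate 1, 0.0619 without KO replicate 5, and 0.0519, 0.0522 and 0.0762 without NTC replicates 2, 4 and 5, so that it exceeded 0.05 without any 1 of these 5 tumors. DESeq2 without a filter over 9 tumors gave *Trpm1* a log2 fold change of -0.60 with an adjusted p of 0.0192, where 6.24% of the genes with an adjusted p had one under 0.05.

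**Figure D1:**
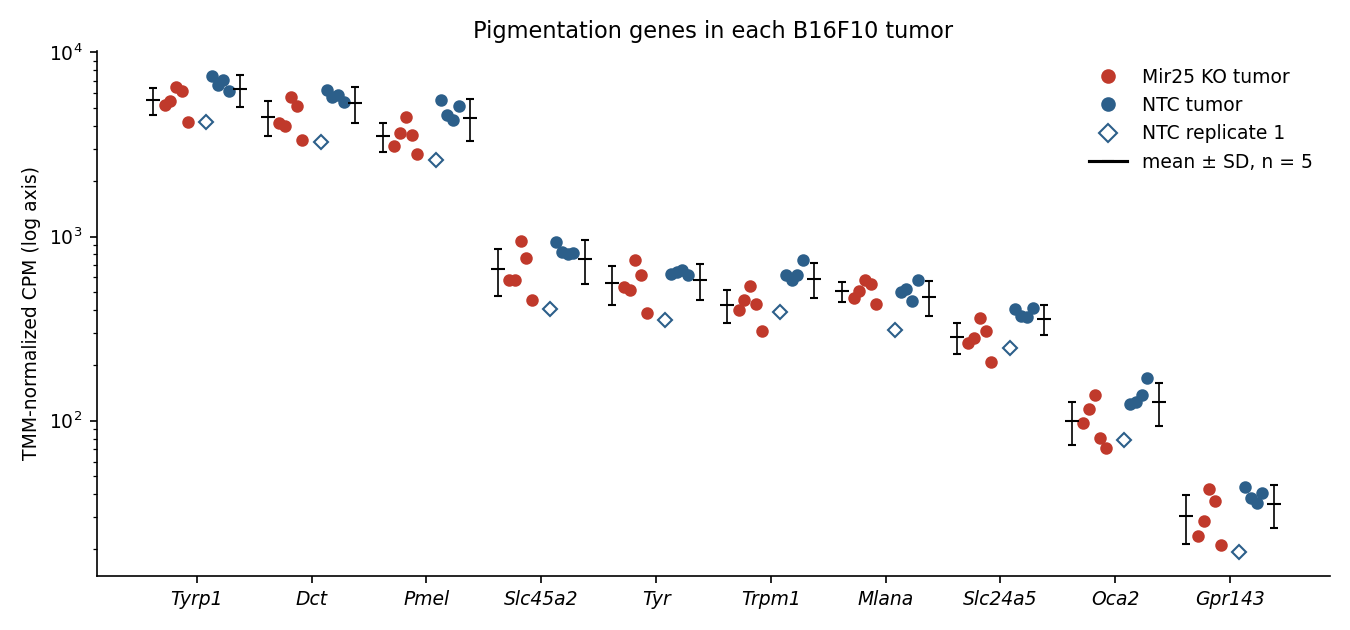
TMM-normalized CPM (log axis) of each pigmentation gene in the 5 *Mir25* KO tumors and the 5 NTC tumors, with NTC replicate 1 as an open diamond and the mean ± SD beside each group. The genes differ far more from each other than KO differs from NTC, and NTC replicate 1 lies near the lowest KO tumors for most genes.

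Counted over the 10 genes, 0 were called over 10 tumors (edgeR, adjusted p under 0.05 and absolute log2 fold change above 1), where 0.019% of 15821 genes were called, and 0 over 9 tumors, where 0.106% of 16078 were. A log2 fold change below 0 was found for 9 of the 10 genes, against 48.7% of all genes tested, and for 10 of 10 over 9 tumors, against 51.9%. The genes vary together between tumors, so these directions are not independent of each other. At an unadjusted p under 0.05, 1 gene was lower in KO (*Trpm1*), against 4.85% of all genes, and none was higher, against 3.99% (8.85% in either direction). DESeq2 over 10 tumors also called 0 of the 10, where it called 24 higher and 72 lower of the 15821 genes. By edgeR over 9 tumors 5 were lower (*Trpm1*, *Slc24a5*, *Pmel*, *Oca2* and *Dct*), against 8.1% of all genes, and none was higher, against 12% (20.1% in either direction). The median log2 fold change of the 10 genes was -0.23 beside 0.01 for all genes, and -0.40 beside -0.02 over 9 tumors. In CPM, 0 of the 10 genes had groups that did not overlap over 10 tumors, against 1.47% of all genes that lay lower in KO, and over 9 tumors *Slc24a5* and *Trpm1* lay lower in KO without overlap, as did 3.6% of all genes.

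**Figure D2:**
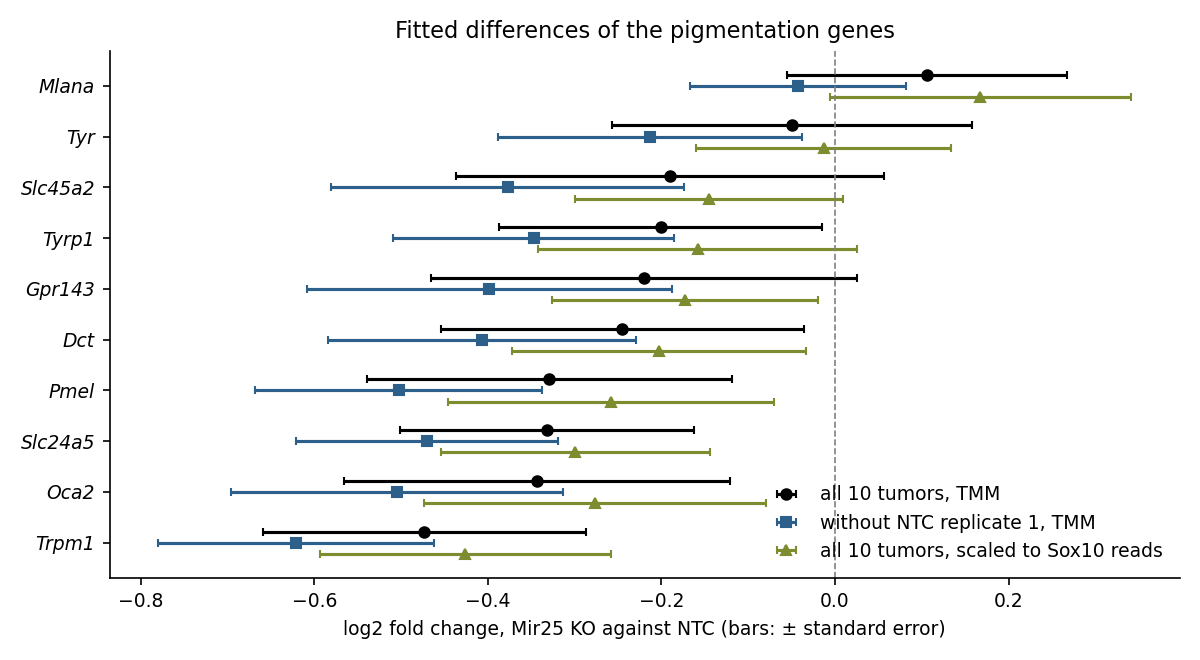
Log2 fold change of each gene, *Mir25* KO against NTC, with its standard error, from edgeR over all 10 tumors, without NTC replicate 1, and with the reads of *Sox10* as the scale. *Trpm1* is lowest and *Mlana* highest under each of the 3 settings, and no value passed the adjusted threshold.

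Across tumors the 10 genes rose and fell as a group. The correlation of log2 CPM between 2 of the genes over 10 tumors ran from 0.53 (*Mlana* and *Trpm1*) to 0.98 (*Dct* and *Slc45a2*), with a median of 0.87 over 45 pairs. Of the 6 lowest correlations, each has *Mlana* as a partner. These values come from shared libraries and shared scaling, and they describe these 10 tumors only. The 10 genes took 1.55%, 1.56%, 2.21%, 1.91% and 1.18% of the gene reads in KO replicates 1 to 5. The shares in NTC replicates 1 to 5 were 0.739%, 2.40%, 2.21%, 2.07% and 2.17%.

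The tumors with few pigmentation reads were the tumors with many leukocyte reads. The 10 leukocyte genes (among them *Ptprc*, which encodes CD45, and *Lyz2*, which encodes lysozyme) summed to 1145 to 6647 CPM in KO, 446 to 1576 CPM in NTC replicates 2 to 5 and 5445 CPM in NTC replicate 1. All 10 had counts, with log2 fold changes above 0 in 10 of 10 and a median of 0.93, and 0 of 10 had an unadjusted p under 0.05 over 10 tumors by edgeR, where 3.99% of all genes were higher (9 of 10 over 9 tumors, median 1.61, where 12% were). The mean log2 CPM of the pigmentation genes went with that of the leukocyte genes at a Pearson r of -0.81 and a Spearman rho of -0.62 (n = 10), at -0.77 and -0.38 without KO replicates 2 and 5, the tumors farthest from the median leukocyte score, and at -0.79 and -0.55 without NTC replicate 1. Both scores come from the same libraries, which add up to a fixed total. In whole tumors, fewer melanoma cells and less pigmentation RNA per melanoma cell cannot be told apart from the CPM values.

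With the leukocyte score as a covariate in edgeR, 4 of the 10 genes kept a log2 fold change below 0: *Trpm1* at -0.30 (SE 0.16, adjusted p = 0.467), *Oca2* at -0.20, *Slc24a5* at -0.14 and *Pmel* at -0.10. The other 6 had values from 0.04 (*Tyrp1* and *Dct*) to 0.25 (*Mlana*). Without NTC replicate 1 and with the same covariate, 8 of the 10 genes were below 0, from -0.48 for *Trpm1* (SE 0.18, adjusted p = 0.433), -0.44 for *Oca2* and -0.33 for *Pmel* to -0.021 for *Slc45a2*, while *Mlana* (0.042) and *Tyr* (0.089) were above it. The count below 0 with this covariate therefore rests on that library. The 7 fibroblast genes summed to 926 to 5375 CPM in KO, 57.7 to 1638 CPM in NTC replicates 2 to 5 and 6050.2 CPM in NTC replicate 1. All 7 had log2 fold changes above 0 (median 0.27, and 1.57 over 9 tumors), with 0 of 7 at an unadjusted p under 0.05 over 10 tumors by edgeR, where 3.99% of all genes were higher, and 3 of 7 over 9, where 12% were. The 6 endothelial genes summed to 66.5 to 147 CPM in KO, 38.5 to 104 CPM in NTC replicates 2 to 5 and 198 CPM in NTC replicate 1, with 4 of 6 above 0 (median 0.19) and 6 of 6 over 9 tumors (median 0.65), and 0 of 6 and 1 of 6 at that p by edgeR, beside the same shares of all genes. Muscle genes summed to 206 CPM in KO replicate 4 and 40.9 CPM in KO replicate 3, against at most 6.15 CPM in the other 8 tumors. The 9 keratinocyte genes summed to 23.6 CPM in KO replicate 3, 10.9 in KO replicate 4 and 11.3 in NTC replicate 1. In each of the other tumors they summed to at most 1.96 CPM. The 7 Schwann cell genes summed to 143 to 179 CPM in KO and 150 to 173 CPM in NTC tumors. The part of these cells in the differences of the pigmentation genes, beyond the leukocyte fit, was not tested.

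**Figure D3:**
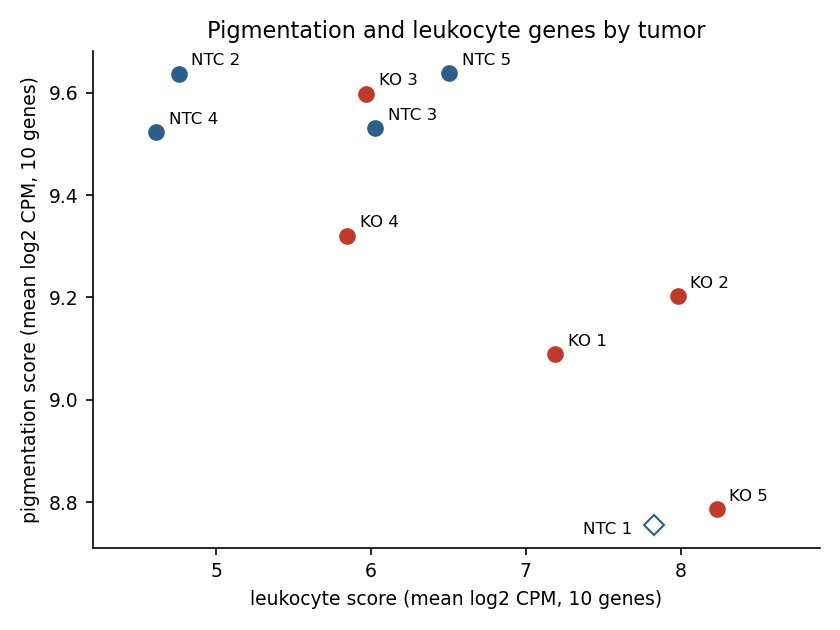
Each of the 10 tumors by its leukocyte score (x axis) and its pigmentation score (y axis), each the mean log2 CPM of 10 genes, KO in red and NTC in blue. The lowest pigmentation scores, 8.79 in KO replicate 5 and 8.76 in NTC replicate 1, are those of tumors with leukocyte scores of 8.23 and 7.83.

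Ratios between genes of the same library need no scaling. *Sox10*, which encodes a transcription factor of the melanocyte lineage and is not among the 10, served as a scale within each library. It had 191 ± 46.6 CPM in KO and 197 ± 48.2 CPM in NTC (SD, n = 5 each). By edgeR its log2 fold change was -0.04 (adjusted p = 0.964). In NTC replicates 2 to 5 it had 218 ± 10.9 CPM (SD, n = 4), and its log2 fold change over 9 tumors was -0.22 (adjusted p = 0.506). Since SOX10 acts with MITF, its own RNA per melanoma cell may differ, and reads from other cells were not tested. A ratio to *Sox10* cannot tell a change of the gene from a change of *Sox10*. Per read of *Sox10*, *Trpm1* had 2.09, 2.78, 2.23, 1.88 and 2.36 reads in the KO tumors and 3.47, 2.80, 2.87, 2.82 and 3.27 in the NTC tumors. All KO tumors lay below all NTC tumors, NTC replicate 1 included, with 2.78 in KO replicate 2 and 2.80 in NTC replicate 2 as the nearest values. The other 9 genes overlapped between groups. Of all genes tested, 0.815% were lower in KO without overlap on this scale, and 0.847% over 9 tumors. With *Sox10* reads as the scale in edgeR, *Trpm1* had a log2 fold change of -0.43 (SE 0.17, unadjusted p = 0.0275, adjusted p = 1), and of -0.37 over 9 tumors (SE 0.16, unadjusted p = 0.0350, adjusted p = 0.250).

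Among the 45 ratios between 2 of the genes, 7 did not overlap between KO and NTC, and the same number did not over 9 tumors. *Mlana* was part of 4 of the 7 and *Tyr* of 3, on the side that was higher in KO each time. These ratios were singled out after the values of all 45 had been seen, and they are given without a test. *Mlana* to *Trpm1* was 1.17, 1.122, 1.07, 1.28 and 1.39 in KO replicates 1 to 5 and 0.794, 0.811, 0.890, 0.720 and 0.774 in NTC replicates 1 to 5. The mean was 1.21 ± 0.129 in KO and 0.798 ± 0.0619 in NTC (SD, n = 5 each), a difference of 0.59 on the log2 scale. NTC replicate 1, which had the lowest CPM among the NTC tumors for each of the 10 genes, lay within the range of the other NTC tumors here.

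*Mlana* to *Slc24a5* ran from 1.61 to 2.05 in KO and from 1.22 to 1.42 in NTC. *Mlana* to *Oca2* ran from 4.22 to 6.91 in KO and from 3.25 to 4.12 in NTC. *Pmel* to *Mlana* ran from 6.46 to 7.71 in KO and from 8.40 to 11.002 in NTC. In each of the 3, *Mlana* made up more of the pair in KO tumors, by 0.43 to 0.47 on the log2 scale.

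*Tyr* was higher in KO relative to *Trpm1* (1.14 to 1.42 against 0.824 to 1.105), to *Slc24a5* (1.83 to 2.08 against 1.42 to 1.81) and to *Dct* (0.115 to 0.130 against 0.101 to 0.114). The last is the smallest of the 7, at 0.19 on the log2 scale, and the nearest KO and NTC tumors were at 0.1147 and 0.1140. *Tyrp1*, *Slc45a2* and *Gpr143* took part in none of the 7. Over all genes, 2.12% did not overlap in their ratio to *Mlana*, 1.18% in their ratio to *Tyr* and 7.86% in their ratio to *Trpm1*. Over 9 tumors the shares were 3.82%, 3.4% and 34.2%. Genes that vary together have narrow ratios, and these shares also count genes that did not vary with the pigmentation genes.

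As a share of the reads on the 10 genes, *Mlana* made up 2.89% to 3.50% in KO and 2.19% to 2.88% in NTC tumors, without overlap. The other 9 genes overlapped, *Trpm1* among them at 2.45% to 2.91% in KO and 2.76% to 3.72% in NTC. On this scale 2.44% of all genes did not overlap, 2.05% higher in KO (15.3% and 14.8% over 9 tumors). With the summed reads of the 10 genes as the scale in edgeR, a scale that *Mlana* itself is part of, *Mlana* had a log2 fold change of 0.35 (SE 0.13, adjusted p = 0.523) where the median of all genes stood at 0.22. Over 9 tumors it was 0.37 (SE 0.12, adjusted p = 0.0771), where the median of all genes was 0.42, so *Mlana* lay above the median gene with NTC replicate 1 and below it without.

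**Figure D4:**
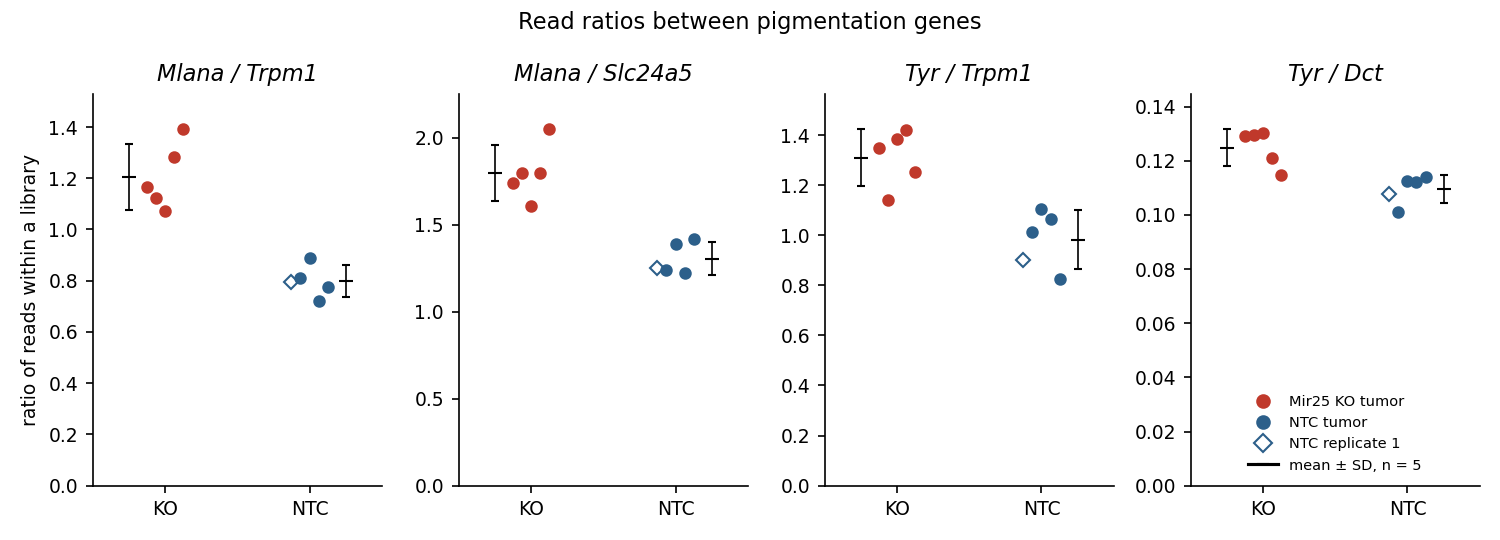
Read ratios within a library for 4 of the 7 gene pairs whose groups did not overlap, in the KO and NTC tumors, with NTC replicate 1 as an open diamond and the mean ± SD beside each group. The KO tumors are above all NTC tumors in each panel, by the widest margin for *Mlana* to *Trpm1* and the narrowest for *Tyr* to *Dct*.

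The other genes of pigmentation were taken from lists of melanosome biogenesis, melanin transport and switching, melanocyte regulators and further MITF targets. By edgeR, the adjusted p was above 0.05 for each gene tested in these 4 lists, whether 10 or 9 tumors were used. Among the 26 genes of melanosome biogenesis, 3 were higher and 2 lower in KO at an unadjusted p under 0.05, with a median log2 fold change of 0.06 (3 and 3 over 9 tumors, median 0.0059). Beside these list counts, the shares over all genes were 3.99% higher and 4.85% lower over 10 tumors, and 12% and 8.1% over 9. *Hps1*, a subunit of the BLOC-3 complex, was at 0.30 (adjusted p = 0.217; 0.29 over 9 tumors) and *Bloc1s2*, a subunit of BLOC-1, at 0.40 (adjusted p = 0.236; 0.31 over 9 tumors). *Mreg* (melanoregulin) was at -0.45 (adjusted p = 0.388; -0.55 over 9 tumors) and the GTPase gene *Rab27a*, named after its value was seen, at -0.39 (adjusted p = 0.493; -0.53 over 9 tumors).

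Of the 10 genes of melanin transport and switching, 1 was higher and 1 lower at an unadjusted p under 0.05, with a median of -0.01 (2 and 1 over 9 tumors, median -0.10). The first was *Mfsd12*, a lysosome and melanosome transporter needed for pheomelanin, with 42.7 to 125 CPM in KO and 28.1 to 59.0 CPM in NTC (log2 fold change 0.98, adjusted p = 0.361; 1.09 over 9 tumors, adjusted p = 0.151). The second was the channel gene *Mcoln3*, with 13.3 to 21.2 CPM in KO and 20.7 to 36.3 CPM in NTC (log2 fold change -0.70, adjusted p = 0.246; -0.84 over 9 tumors, adjusted p = 0.0886). *Tpcn2*, a melanosome channel gene, was at 0.57 (adjusted p = 0.645), and at 0.80 over 9 tumors (adjusted p = 0.197). Both *Mfsd12* and *Tpcn2* ran against the pigmentation genes across tumors, at an r of -0.70 and -0.86 with their mean standardized log2 CPM, and in the NTC group both were highest in NTC replicate 1 (59.0 and 33.1 CPM), the NTC tumor with the most leukocyte reads. With the leukocyte score as a covariate in edgeR, the log2 fold change of *Mfsd12* was 0.43 (SE 0.14, adjusted p = 0.203), and 0.25 over 9 tumors (SE 0.15, adjusted p = 0.688). That of *Tpcn2* was 0.062 (SE 0.15, adjusted p = 0.90), and 0.065 over 9 tumors (SE 0.19, adjusted p = 0.956). Among the list genes this fit is given for *Mfsd12* and *Tpcn2* only, and which cells their reads come from was not tested.

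Of the 16 regulators, 14 were tested, 1 was higher and 0 were lower at an unadjusted p under 0.05 by edgeR, with a median of 0.03 (2 and 0 over 9 tumors, median 0.11). The receptor gene *Kit* had 7.83 to 12.1 CPM in KO and 5.06 to 7.77 CPM in NTC, without overlap. *Hps1* and *Bloc1s2* of melanosome biogenesis also lay higher in KO without overlap. The share of all genes that lay higher in this way is not given here. By edgeR, the log2 fold change of *Kit* was 0.61 (adjusted p = 0.298), and 0.61 over 9 tumors (adjusted p = 0.177). *Mitf* was at -0.01 (adjusted p = 0.993; -0.18 over 9 tumors) and *Pax3* at -0.24 (adjusted p = 0.742; -0.35 over 9 tumors). The endothelin receptor gene *Ednrb* had 132 CPM in NTC replicate 1 and 2.99 to 24.1 CPM in the other 9 tumors. *Foxd3* had 0 counts in all 10 libraries.

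Of the 10 other MITF targets, 8 were tested, 0 were higher and 2 were lower at an unadjusted p under 0.05, with a median of -0.10 (1 and 2 over 9 tumors, median -0.26). *Ppargc1a*, which encodes the mitochondrial coactivator PGC-1α, had 95.0 to 152 CPM in KO and 204 to 431 CPM in NTC tumors, without overlap. Its log2 fold change was -1.07 (SE 0.21, adjusted p = 0.137), and -1.19 over 9 tumors (SE 0.20, adjusted p = 0.0613). *Tbc1d16*, a Rab GTPase-activating protein gene, was at -0.44 (adjusted p = 0.347; -0.52 over 9 tumors) and *Acp5*, also expressed in macrophages, at 1.18 (adjusted p = 0.633; 1.57 over 9 tumors, adjusted p = 0.214).

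The genes whose log2 CPM went most closely with the mean standardized log2 CPM of the 10 pigmentation genes over 10 tumors were *Laptm4b* (r = 0.995), *Gtf2h3* (0.981), *Map3k10* (0.978), *Tspan10* (0.978), *Tspan9* (0.977), *Vars2* (0.976), *Csrnp2* (0.975), *Trim63* (0.975), *Tm7sf3* (0.971) and *Tspyl4* (0.970), out of 13902 genes with a mean of at least 1 CPM. In all, 244 genes had an r above 0.9, and 187 over 9 tumors, where the r of the 10 genes just named was at least 0.951. *Sox10* had an r of 0.92 and *Mitf* of 0.91 (0.89 and 0.87 over 9 tumors). The other list genes above 0.9, named after their values were seen, were *Cdk2* (0.95, which overlaps *Pmel* by 34 exonic bp), *Rab38* (0.94), *Mc1r* (0.93), *Rab27a* (0.91) and *Met* (0.91), and those below -0.9 were *Ap3s1* (-0.93) and *Zeb2* (-0.92). Over 9 tumors *Cdk2*, *Rab38* and *Rab27a* stayed above 0.9, and *Mc1r* (0.896), *Met* (0.861), *Ap3s1* (-0.892) and *Zeb2* (-0.880) were within it. These are descriptions over 10 tumors that share libraries, scaling and leukocyte content.

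The microRNA whose gene was targeted in the KO cells, miR-25-3p, is shown with its seed (bases 2 to 8) in capitals, since 3′ UTRs are searched with the reverse complement of that seed. The sequence is that of RefSeq, chr5:138165332-138165353 on the minus strand of GRCm38.p6.
mmu-miR-25-3p: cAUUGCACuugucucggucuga
In total 6 mature mouse miRNAs share this seed. A match to GTGCAAT was found in the 3′ UTR of 0 of the 10 pigmentation genes, against 7.75% of 12881 tested genes with a 3′ UTR in GENCODE M21. The 3′ UTRs of 8 of the 10, from 221 bases (*Pmel*) to 901 (*Trpm1*), are shorter than the median of 1189 bases, while those of *Slc45a2* (1294) and *Tyr* (4278) are longer. The absence of these letters says only that they are not in the annotated UTR of 1 transcript per gene.

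In GENCODE M21 on GRCm38, the 10 genes are protein coding and lie on 8 chromosomes. *Oca2* (chr7:56239760-56536518), *Trpm1* (chr7:64153835-64269775) and *Tyr* (chr7:87424771-87493512, minus strand) share chromosome 7. *Mlana* lies at chr19:29697824-29708634, *Pmel* at chr10:128704195-128720238, *Tyrp1* at chr4:80834123-80851719 and *Dct* at chr14:118012790-118052244 on the minus strand. *Slc24a5* lies at chr2:125068124-125088677, *Slc45a2* at chr15:11000721-11029233 and *Gpr143* at chrX:152781921-152808646. The miR-211 gene in *Trpm1* had 0 to 15 counts per library, too few to compare.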

How the data were processed

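Whole tumor RNA of 5 KO and 5 NTC tumors was measured, with groups and replicate numbers from the sample labels. Per the submitters' processing notes, the authors used FastQC, Trimmomatic, HISAT2 on mm10 and HTSeq, and deposited raw counts per gene for each tumor; the strand setting and the annotation are not given in the sources used here. Summary lines stayed out of library sizes (reads on no gene 17.47% to 42.95% of each file, reads not uniquely aligned 12.77% to 20.38%, ambiguous reads 0.757% to 2.54%). Symbols on several lines (107) include none of the 10 genes. No 2 libraries of a group agreed within counting noise (chi-square per degree of freedom of at least 17.4).

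The test was edgeR 4.0.16 (quasi-likelihood, TMM, filterByExpr, Benjamini-Hochberg over all genes) on KO against NTC. A gene was called at an adjusted p under 0.05 and an absolute log2 fold change above 1. The standard error was computed as the size of the fitted log2 value over the square root of its F statistic. Log2 CPM used a prior count of 2. DESeq2 1.42.0, other scales, filters, covariates and left-out tumors were alternatives. DESeq2, the leukocyte covariate and the *Sox10* scale over 9 tumors, and the scale of the summed reads of the 10 genes, were added after seeing the data. The members and lists were chosen with earlier results of these data known. Named genes are the 10 members, *Mitf*, *Sox10*, up to 3 genes per list with the lowest p, and the 10 genes most like the members by Pearson r; other names are given as such. In simulated data with 200 genes changed by 2 on the log2 scale, edgeR recovered 200 and called 4 unchanged genes. DESeq2 recovered 200 and called 10 unchanged genes. Recovery at smaller log2 fold changes, such as those of the 10 members, was not tested. Errors are the spread between tumors; counting error was not given apart. R 4.3.3, Python 3.11.15, pandas 2.3.3, numpy 2.4.6, scipy 1.17.1 and matplotlib 3.10.9 were used.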

Additional observations from a re-analysis of the deposited data

Results flagged for a closer look

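In a single comparison of 1 tumor with the others of its group, chance gives about 1 in 20. The 46 comparisons made here share genes that vary together and sums of the same reads, so that rate does not apply to their count. Among them 9 values lay far from the rest, and all 9 belong to NTC replicate 1. They were the CPM of *Tyr* (350.4), *Dct* (3251), *Slc45a2* (403), *Slc24a5* (247) and *Gpr143* (19.4), each below the other NTC tumors. *Slc45a2* as a share of the reads on the 10 genes (3.40%), the share of gene reads on the 10 genes (0.739%) and their summed CPM (11849.5) were also low. The number of leukocyte reads per pigmentation read was high, at 0.460, against 0.0206 to 0.0786 in NTC replicates 2 to 5 and 0.0582 to 0.545 in KO tumors.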

How the results depend on the processing

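The number of the 10 genes called stayed at 0 under all 25 alternatives, and *Trpm1*, *Pmel*, *Oca2* and *Slc24a5* stayed below 0. *Trpm1* passed an adjusted p under 0.05 only by DESeq2 without a filter over 9 tumors (-0.60). Of the 10 genes 9 were below 0 as reported, 4 with the leukocyte covariate (8 over 9 tumors) and 5 on the scale of their summed reads (7 over 9 tumors), and 8 to 10 with 1 tumor left out. The number lower at an unadjusted p under 0.05 was 1 as reported, 0 without TMM, with the leukocyte covariate and on the summed scale (10 and 9 tumors), 6 by DESeq2 without a filter over 9 tumors (3.9% of all genes), and 0 to 5 with 1 tumor left out (2 without KO replicate 3, where 4.33% of all genes were lower, and 5 without NTC replicate 1, where 8.1% were). Of all genes, 6.66% were lower at that p with the leukocyte covariate over 10 tumors, and 1.18% and 0.97% on the summed scale over 10 and 9 tumors. On the summed scale 1 of the 10 genes was higher, over 10 and 9 tumors, where 7.09% and 42.4% of all genes were. Without TMM 7.29% of all genes were higher and 1.54% lower, against 3.99% and 4.85%. Signs turned for *Tyr* without TMM (0.0011), without KO replicate 5 (0.057), without NTC replicate 4 (9.6e-05), with the leukocyte covariate over 10 (0.23) and 9 tumors (0.089), on the *Sox10* scale over 9 (0.0061) and on the summed scale over 10 (0.18) and 9 tumors (0.17). The leukocyte covariate also turned *Tyrp1* (0.043), *Dct* (0.037), *Slc45a2* (0.15) and *Gpr143* (0.078), and the summed scale turned *Tyrp1* (0.035, and 0.057 over 9 tumors), *Slc45a2* (0.048) and *Gpr143* (0.017). *Mlana* turned without NTC replicate 1 (-0.043) and by DESeq2 over 9 tumors (-0.026). With 1 tumor left out at a time, *Mlana* ran from -0.043 to 0.19 and *Tyr* from -0.21 to 0.057. The summed scale centres the 10 genes near 0 by its construction, so signs and counts below 0 on it say nothing of stability. The cause of the other turns was not tested. The summed scale moved the median of all genes to 0.22 (0.42 over 9 tumors) and the *Sox10* scale to 0.27 over 9 tumors; no filter moved it to -0.16.

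Over all genes, 1 was called higher and 2 lower. DESeq2 called 24 and 72 over 10 tumors with the filter and 618 and 136 over 9 tumors without it, so that tumors and filter both differ, at least 10 counts in every tumor gave 0 and 6, and the leukocyte covariate 5 and 7, or 5 and 4 over 9 tumors. The number called lower was 4 with robust dispersions or no fold threshold, and 0 without TMM, on the *Sox10* scale and on the summed scale (10 and 9 tumors each). Leaving out 1 tumor gave 1 to 2 higher and 0 to 15 lower. The replicate numbers did not pair the tumors (correlations from -0.29 to 0.63), and only replicates 1 and 4 correlated best with their own number. With the replicate block 1 gene was called higher and 0 lower, and *Trpm1* was at -0.46. The lowest count of these genes in a library was 144 (*Gpr143*, NTC replicate 1), and the effect of depth was not tested.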
